A study of Homo sapiens with 4 samples.

Results

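The cadherins and catenins described here were 9 of the 58735 genes in a table of messenger RNA levels from 4 libraries, chosen by gene symbol: the cadherins CDH1, CDH2, CDH3, CDH11 and CDH17 and the catenins CTNNA1, CTNNB1, CTNND1 and JUP. The study compared HCT116 and LOVO, established lines from human colorectal cancers, each grown as adherent cells and as spheroids that had been raised to enrich cells with stem-like traits. All 4 libraries carry the genotype label WT. Adherent cells were kept untreated in RPMI-1640 with serum. Spheroids carry the treatment label 1mg/ml with no agent named. The study's methods give a 2-week culture in serum-free medium with growth factors on low-attachment plastic. Its results section adds oxaliplatin, a platinum drug, in micrograms per ml where the label has milligrams, so the dose is not settled. Growth form, medium and drug therefore changed together and cannot be told apart. There was 1 library per condition, so no difference below has a replicate check.

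Cadherins are calcium-dependent adhesion proteins that span the membrane and bind cadherins on the next cell. Inside the cell the tail of a classical cadherin holds p120-catenin (CTNND1) near the membrane and either beta-catenin (CTNNB1) or plakoglobin (JUP) farther along, and these bring in alpha-catenin (CTNNA1), which links the complex to actin. CTNNB1 also carries WNT signals into the nucleus when it escapes the APC and AXIN destruction complex, and JUP is also a plaque protein of desmosomes. Intestinal epithelium uses E-cadherin (CDH1), P-cadherin (CDH3) is found in basal and proliferating epithelia, N-cadherin (CDH2) in neural and mesenchymal cells, CDH11 in mesenchymal and bone-forming cells, and CDH17, liver-intestine cadherin, lacks the catenin-binding tail of the classical members.

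Sequences are shown first for 3 pairs whose levels are set against each other below, because reads that fall in a shared stretch could be credited to either gene. Across the transcripts of GENCODE release 29 the longest run of identical bases between members was short in these pairs, and its letters are given in full in capitals.

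CDH1 and CDH2, 18 bases: AAGACCAGGACTATGACT

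CDH2 and CDH3, 15 bases: GACCAGGACTATGAC

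CTNNB1 and JUP, 17 bases: CGTACCATGCAGAATAC

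Against all other genes the longest shared run found was 57 bases for CDH1, 81 for CDH3, 32 for CDH2, 34 for CTNNB1 and 65 for CTNNA1. The last was with its pseudogene CTNNA1P1, which held 1 or 0 reads per library. This search moved along other transcripts in steps and could miss runs under 50 bases, so 32 and 34 are lower bounds. Runs of at least 50 bases were shared with 30 other genes for CDH1 and with 146 for CDH3.  CTNND1 shared 321 bases with the read-through gene TMX2-CTNND1, which held at most 2 reads in a library. CDH11 shared 259 bases with AC010533.1, which had no reads. Whether counting used the strand is not given in the sources used here, and 694 exonic bases of CDH3 lie opposite AC126773.2, which held 3 and 3 reads in HCT116 and 30 and 27 in LOVO. For CDH1 the opposite gene AC099314.1 covered 347 bases and had no reads.

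Promoter windows of 250 bases upstream of a start were held in the RefSeq tables (GRCh38.p14) for 4 of the 9 members, CDH2, CTNNA1, CTNNB1 and JUP. One window of each is printed 5′ to 3′, since 3 of these genes shared a direction in both lines (lower in spheroids) and CDH2 was the cadherin that was higher in LOVO. Capitals mark matches, on either strand, to the E-box (letters CACCTG), the GC box (letters GGGCGG), the CCAAT box and the TATA box (letters TATAAA). Overlapping matches of the GC box were each counted.

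CDH2, chr18:28177131-28177380, minus strand: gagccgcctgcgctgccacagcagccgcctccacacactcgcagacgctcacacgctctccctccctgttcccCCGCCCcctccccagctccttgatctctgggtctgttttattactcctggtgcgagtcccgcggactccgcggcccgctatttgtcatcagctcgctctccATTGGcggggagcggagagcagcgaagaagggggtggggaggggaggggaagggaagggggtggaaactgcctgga

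CTNNA1, chr5:138753175-138753424, plus strand: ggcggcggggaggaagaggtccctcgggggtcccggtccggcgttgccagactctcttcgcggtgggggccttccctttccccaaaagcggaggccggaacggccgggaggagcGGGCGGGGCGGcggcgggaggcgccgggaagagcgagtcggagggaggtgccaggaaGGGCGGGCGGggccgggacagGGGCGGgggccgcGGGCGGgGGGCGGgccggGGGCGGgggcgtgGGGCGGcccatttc

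CTNNB1, chr3:41199255-41199504, plus strand: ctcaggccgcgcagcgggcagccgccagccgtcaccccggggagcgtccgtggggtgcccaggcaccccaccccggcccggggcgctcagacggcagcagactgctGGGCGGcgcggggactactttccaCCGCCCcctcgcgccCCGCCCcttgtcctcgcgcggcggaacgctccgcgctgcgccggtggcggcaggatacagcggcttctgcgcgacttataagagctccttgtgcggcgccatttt

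JUP, chr17:41785977-41786226, minus strand: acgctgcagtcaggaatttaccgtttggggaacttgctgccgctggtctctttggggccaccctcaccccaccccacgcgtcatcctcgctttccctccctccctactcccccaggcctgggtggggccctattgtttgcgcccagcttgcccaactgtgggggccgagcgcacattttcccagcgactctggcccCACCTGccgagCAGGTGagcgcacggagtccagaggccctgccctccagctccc

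The CTNNA1 window held 9 GC boxes and was 80.0% G or C, the CTNNB1 window held 3 and was 74.4%, and the CDH2 window held 1 GC box and 1 CCAAT and was 66.0%. The other CTNNA1 windows held 4, 0 and 0 GC boxes at 80.4%, 40.8% and 46.4%, and a second CDH2 window, at 42% G or C, held no GC box, 1 CCAAT and 1 TATAAA. The JUP window printed, also 66.0%, held 2 E-boxes, the letters bound by SNAI and ZEB repressors, and no GC box, while a second JUP window, at 63.6%, held 2 GC boxes, 1 CCAAT and no E-box. Over all 35116 windows the median G or C content was 58.0%, and 17.5% held an E-box, 42.6% a GC box, 32.0% a CCAAT and 10.7% a TATAAA. These matches are letters in a window and were not tested as binding sites.

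The table gave between 15483569 and 20429147 reads per library on genes, and its unit was FPKM, reads scaled by gene length and by library size, so levels can be set beside each other between genes on that scale. Every FPKM value above 0 returned a whole number of reads when multiplied back by gene length and library size (within 0.01 of a read), and these reads are printed where they are few. Library size was inferred by taking the smallest value of FPKM times length above 0 as 1 read. It was 0.998 and 1.09 times the reads on genes in HCT116 and 0.907 and 1.05 times in LOVO. Differences and intervals below rest on that size, and scaling by reads on genes was not tried.  A level of 3 reads was taken as the floor of detection.

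Before the results, the line labels were compared with epithelial markers. Both HCT116 libraries held EPCAM at 85.6 FPKM (adherent) and 79.3 (spheroids) and the intestinal factor CDX2 at 3.84 and 3.12. In the libraries labelled LOVO, EPCAM was at 0.930 and 1.5 FPKM, CDX2 and VIL1 had no reads in either, and KRT20 had 1 and 2 reads. Simple-epithelial keratins were nonetheless present there, with KRT8 at 189 and 81.6 FPKM. The 10 epithelial markers summed to 1810 and 1298 FPKM in HCT116 and to 354 and 206 in LOVO, and 3 of the 10 had no reads in each LOVO library. The 8 fibroblast or mesenchyme markers summed to 5.63 and 16.1 FPKM in HCT116 and to 54.3 and 73.2 in LOVO, where lumican (LUM) reached 31.4 and 50.4 and decorin (DCN) 10.4 and 9.97. DCN had no reads in HCT116 and the mesenchymal filament VIM stood at 0.219 and 0.115 FPKM there, against 39.4 and 32.2 in LOVO. VIL1 was low in HCT116 as well, with 6 and 11 reads. KRT19 was at 808 and 543 FPKM in HCT116 and 14.9 and 4.85 in LOVO. Thus CDX2, VIL1 and KRT20 were at or near 0 in the libraries labelled LOVO, and other epithelial markers were not. KRT18 was at 253 and 206 FPKM in HCT116 and 122 and 98.8 in LOVO. CLDN7 was at 87.1 and 41.4 FPKM in HCT116 and 26.8 and 19.1 in LOVO. CDX1 and LGALS4 had at most 5 reads in any library. Within HCT116, spheroids held more KRT20 (7.45 against 0.930 FPKM) and more COL1A1 (15.5 against 5.51). In LOVO the collagen COL3A1 was at 0.811 FPKM in adherent cells and 5.13 in spheroids, and COL1A1 at 9.89 and 6.10. The rest of the mesenchyme markers were lower in LOVO. PDGFRB was at 1.57 and 1.17 FPKM, COL1A2 had 0 and 1 reads, THY1 10 and 3, and FAP 21 and 49. The part of these markers in the differences below was not tested, and LOVO below means the libraries with that label. Endothelial markers summed to 0.306, 0.762 and 1.13 FPKM in the first 3 libraries and 7.84 in LOVO spheroids, of which PECAM1 made 6.35. Leukocyte markers summed to 0.843 and 0.696 FPKM in HCT116 and to 0.250 and 1.97 in LOVO. In these bulk libraries fewer cells of a type and less RNA per cell cannot be told apart.

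Of the 5 cadherins, HCT116 carried E- and P-cadherin side by side, whereas LOVO carried N-cadherin with a low level of P-cadherin and almost no E-cadherin. CDH1 (ENSG00000039068, GRCh38 chr16:68737225-68835548, plus strand) was at 31.1 FPKM in HCT116 both as adherent cells (3920 reads) and as spheroids (3227 reads). LOVO held it at 0.117 FPKM when adherent, from 13 reads, and at 0.00805 as spheroids, from 1 read. The gene was thus among the higher measured genes in HCT116 and near the floor in LOVO, in both growth forms. Among the 14429 genes with a mean of at least 1 FPKM its level stood at percentile 91.3 and 92.8 in HCT116 and at 4.73 and 1.57 in LOVO.

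CDH3 (ENSG00000062038, chr16:68636189-68722616, plus strand) lay next to CDH1 and showed the same direction with a smaller span. Its level in HCT116 was 34.7 FPKM for adherent cells (4411 reads) and 40.1 for spheroids (4197 reads), and its level in LOVO was 3.71 (415 reads) and 3.39 (425 reads). Unlike CDH1 it stayed well above the floor in every library. CDH2 (ENSG00000170558, chr18:27950966-28177446, minus strand) took the opposite pattern. HCT116 held it at 0.0396 FPKM when adherent (4 reads) and 0.0120 as spheroids (1 read), against 6.98 (620 reads) and 5.46 (544 reads) in LOVO. The LOVO level of CDH2 was near the middle of all measured genes, at percentile 54.7 and 48.7.

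The other 2 cadherins were near or under the floor. CDH11 (ENSG00000140937, chr16:64943753-65126112, minus strand) had no reads in any library, which allows a level of at most 0.0110 to 0.0133 FPKM by library, for counting error only. CDH17 (ENSG00000079112) had 15 and 25 reads in adherent and spheroid HCT116 cells (0.189 and 0.381 FPKM) and 0 and 5 reads in LOVO (0 and 0.0637 FPKM). Neither gene reached the mean of 1 FPKM, so counts over measured genes below cover 7 of the 9 members. CDH11 thus had no reads in LOVO. Mesenchymal genes were mixed there, with many reads for DCN, LUM and VIM and few for COL1A2 and THY1.

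The catenins were high in all 4 libraries. JUP (ENSG00000173801, chr17:41754604-41786931, minus strand) was at 88.1 FPKM (adherent) and 78.1 (spheroids) in HCT116 and at 148 and 87.3 in LOVO. CTNNA1 (ENSG00000044115, chr5:138610967-138935034, plus strand) was at 71.1, 58.3, 122 and 59.3 FPKM in the same order. Adherent LOVO cells held the highest level of both genes. CTNNB1 (ENSG00000168036, chr3:41194741-41260096, plus strand) was at 33.4, 28.2, 24.8 and 14.4 FPKM. CTNND1 (ENSG00000198561, chr11:57753243-57819546, plus strand) was at 25.6, 22.5, 23.8 and 14.7 FPKM. For both of these LOVO spheroids were lowest. In every library JUP stood above CTNNA1 and CTNNA1 above CTNNB1. With no replicates, the close levels of CDH3, CTNNB1 and CDH1 in adherent HCT116 cells could not be ranked beyond a spread between cultures.

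**Figure D1:**
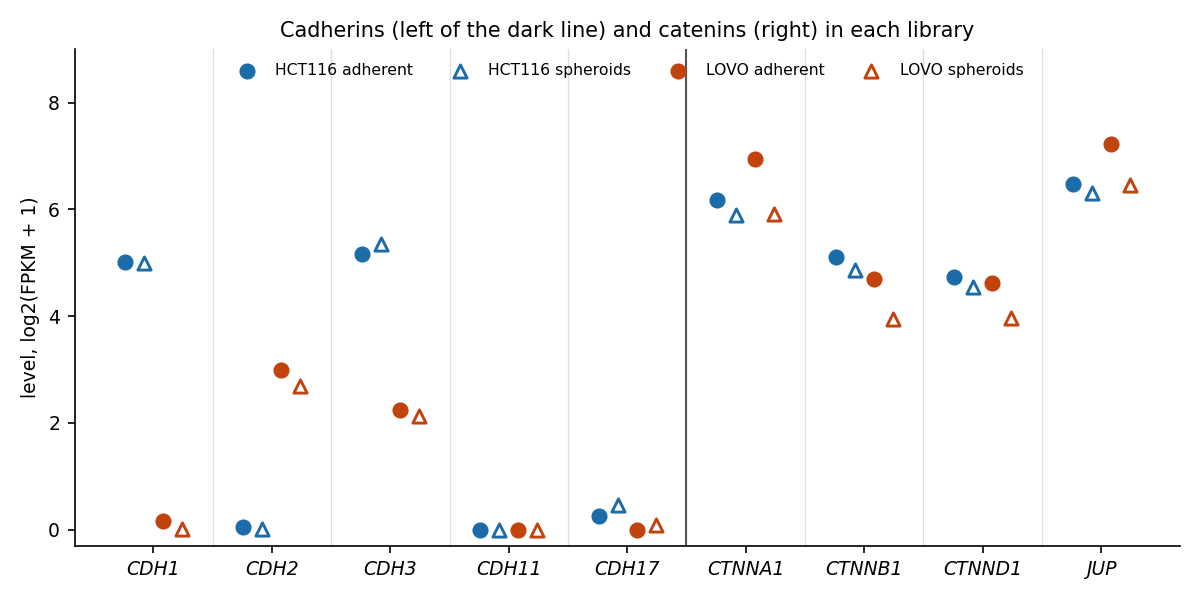
Level of each cadherin and catenin in the 4 libraries, as log2(FPKM + 1), with 1 point per library and no replicates (circles: adherent cells, triangles: spheroids, blue: HCT116, red: LOVO). CDH1 is at 31.1 FPKM in both HCT116 libraries and near 0 in both LOVO libraries, CDH2 takes the reverse pattern, and the 4 catenins are high throughout.

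Set against the sum of the 5 cadherins, their makeup differed by line more than by growth form. That sum leaves out CDH24, another classical cadherin, at 7.74 and 6.69 FPKM in HCT116 and 7.02 and 10.9 in LOVO. In LOVO CDH24 stood at or above the level of CDH2. In HCT116 CDH1 made 47.1% of summed cadherin FPKM when adherent and 43.5% as spheroids, and CDH3 made 52.5% and 56.0%. In LOVO, CDH2 made 64.6% in adherent cells and 61.2% in spheroids, CDH3 34.3% and 38%, and CDH1 1.09% and 0.0902%. Of these 5, CDH3 was therefore the one with a large share in every library. The summed level itself was 66.1 and 71.5 FPKM in HCT116 and 10.8 and 8.92 in LOVO. The catenins did not share that difference and summed to 218 and 187 FPKM in HCT116 and to 319 and 176 in LOVO. Catenin FPKM per FPKM of these 5 cadherins was therefore 3.30 and 2.61 in HCT116 and 29.5 and 19.7 in LOVO. With CDH24 in the sum these ratios would be lower.

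**Figure D2:**
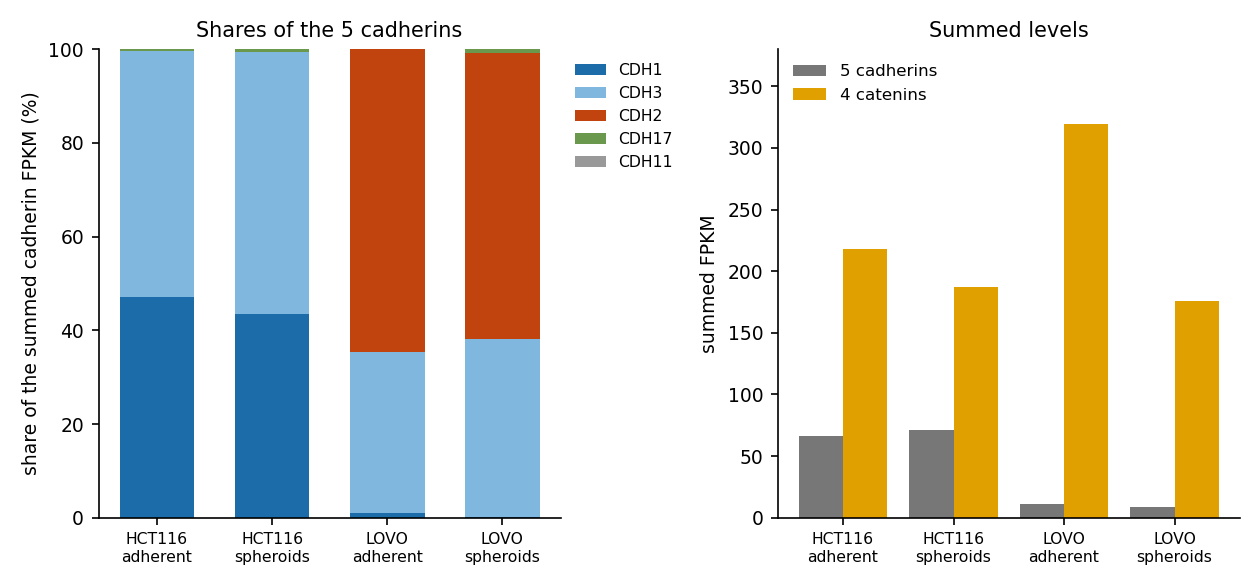
Left, share of the summed FPKM of the 5 cadherins that each made in the 4 libraries (percent). Right, summed FPKM of the 5 cadherins (grey) and the 4 catenins (yellow), where the cadherin sum is 66.1 and 71.5 in HCT116 and 10.8 and 8.92 in LOVO while the catenin sum stays between 176 and 319.

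Among catenins, the ratios of JUP and of CTNND1 to CTNNB1 also followed the line, and that of CTNNA1 to JUP plus CTNNB1 did not. JUP and CTNNB1 compete for one site on the cadherin tail, and JUP made 72.5% and 73.5% of their sum in HCT116 and 85.7% and 85.8% in LOVO, a ratio of JUP to CTNNB1 of 2.64 and 2.77 against 5.99 and 6.05. CTNNA1 per unit of JUP plus CTNNB1 was 0.585 and 0.548 in HCT116 and 0.707 and 0.583 in LOVO. CTNND1 per unit of CTNNB1 was 0.765 and 0.797 in HCT116 and 0.959 and 1.02 in LOVO. The JUP share thus differed between lines and moved little between growth forms, while the alpha-catenin ratio was highest in adherent LOVO cells.

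The first comparison asked how the genes differed between spheroids and adherent cells of one line. Differences are in log2(FPKM + 1), spheroids minus adherent, and the range after each is the 95% exact counting interval of the log2 ratio without the added 1, which covers counting error alone and compares 2 libraries. The study's methods set a log fold change above 2 together with a p-value under 0.05 in edgeR. Here only the 2 was taken over, without a test, and the added 1 shrinks differences at low levels, as for CDH1 in LOVO. Past 2 lay 0 of the 7 measured members in HCT116, where 0.707% of all genes did, and 0 of 7 in LOVO, where 2.75% did. Past 1 lay 0 of 7 in HCT116 (5.52% of all genes) and 1 of 7 in LOVO, CTNNA1 (16.4%). For CDH1, CDH2 and CDH3 these differences were smaller than those between lines given below, which was not so for every catenin.

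Spheroids of each line held less of all 4 catenins. In HCT116 CTNNA1, the link to actin, was lower by 0.28 (-0.33 to -0.25). CTNNB1 differed by -0.24 (-0.30 to -0.20). For CTNND1 the value was -0.18 (-0.25 to -0.12) and for JUP -0.17 (-0.22 to -0.13). Each of these intervals lay below 0, as it did for 35.0% of all genes in HCT116. In LOVO the same genes were lower by more. CTNNA1 stood at -1.03 (-1.08 to -1.01), JUP at -0.76 (-0.81 to -0.73), CTNNB1 at -0.74 (-0.84 to -0.72) and CTNND1 at -0.66 (-0.77 to -0.62), with an interval below 0 in 42.0% of all LOVO genes. An interval below 0 in both lines was found for 4 of the 4 catenins and for 22.6% of all genes. The catenin median was -0.21 in HCT116 and -0.75 in LOVO, beside -0.03 and -0.06 over all genes and -0.12 and -0.21 over the 8146 genes with a mean of at least 5 FPKM. Direction held under every scaling tried, with sizes in LOVO that shrank to -0.84 for CTNNA1, -0.57 for CTNNB1, -0.48 for CTNND1 and -0.56 for JUP in TPM, levels rescaled to one total per library, a scaling that moved the median of all LOVO genes to 0.10. In the ranking of all changes CTNNA1 lay lowest of the catenins, at percentile 26.6 in HCT116 and 7.19 in LOVO. CTNNB1 lay at 29.95 and 15.1, CTNND1 at 35.3 and 18.2, and JUP at 36.1 and 14.4. The catenins held between 2598 and 19374 reads per library, and a counting interval narrows as reads rise. The shares of all genes given here and below were not matched for reads.

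The decrease was larger in LOVO for each catenin, by 0.75 for CTNNA1, 0.59 for JUP, 0.50 for CTNNB1 and 0.48 for CTNND1, and the LOVO counting interval lay wholly below that of HCT116 for all 4, as it did for 28.4% of all genes. No test over cultures of that difference could be made with 1 library per condition.

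Cadherins moved apart from the catenins and from one another. CDH1 differed by -0.0018 in HCT116 (-0.07 to 0.07), so no change was detectable at that depth, with a sign that turned under other scalings (up to 0.04), and in LOVO it went from 13 reads to 1, a log2 ratio of -3.87 (-9.28 to -1.13). CDH3 was higher by 0.20 in HCT116 spheroids (0.15 to 0.27), an interval above 0 as for 27.2% of all genes. In LOVO CDH3 differed by -0.10 (-0.33 to 0.07), which counting error covers and whose sign turned under other scalings (-0.13 to 0.07). CDH2 was lower by 0.31 in LOVO spheroids (-0.52 to -0.19) and went from 4 reads to 1 in HCT116 (log2 ratio -1.72, -7.34 to 1.62). CDH17 had more reads in spheroids of both lines, 25 against 15 in HCT116 (log2 ratio 1.02, 0.04 to 2.04) and 5 against 0 in LOVO, where the interval of the log2 ratio begins at -0.29 and so covers no change. CDH11 had no reads to compare.

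**Figure D3:**
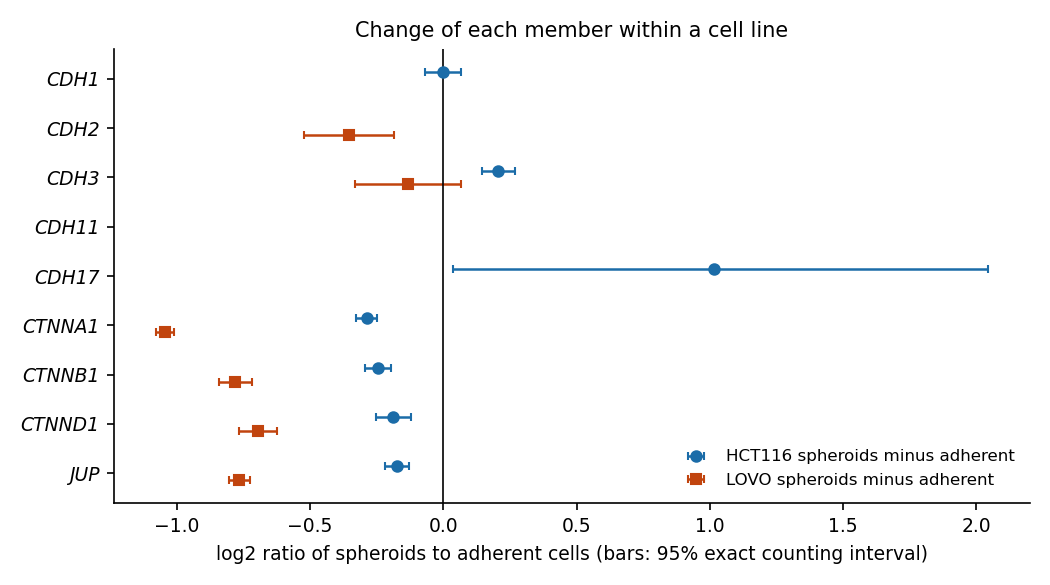
Log2 ratio of spheroids to adherent cells for each gene within HCT116 (blue circles) and LOVO (red squares), with bars for the 95% exact counting interval, drawn only where both libraries held more than 3 reads. The 4 catenins lie below 0 in both lines and lower in LOVO, from -1.04 for CTNNA1 to -0.70 for CTNND1, while CDH3 lies above 0 in HCT116 and its LOVO interval includes 0.

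With both lines in one limma fit over the 14429 genes, the line as a covariate and 1 residual degree of freedom, no member passed an adjusted p of 0.05 for growth form, nor did any other gene (0% of all genes). The smallest adjusted p was 0.462. At an unadjusted p under 0.05 limma gave 0 members and 1545 genes (10.7%). CTNNA1 had the largest mean change among members at -0.66 (SE 0.31, limma adjusted p 0.481), and CTNNB1 followed at -0.49 (SE 0.27, limma adjusted p 0.497), JUP at -0.47 and CTNND1 at -0.42. CDH1, CDH2 and CDH3 had means of -0.08, -0.17 and 0.05.

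The second comparison set LOVO against HCT116 within each growth form. These contrasts use the same 4 libraries as those above, so their values are not independent of them. Past 2 lay 3 of the 7 measured members in adherent cells, where 10.9% of all genes did, and 3 of 7 in spheroids, where 10.4% did, namely CDH1 and CDH3 lower and CDH2 higher in LOVO. The same 3 were past 1, as were 33.8% and 32.7% of all genes. CDH1 and CDH2 reached the mean of 1 FPKM only through the line in which each is high, so they had to differ and their counts carry no weight as evidence.

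CDH1 was 265-fold lower in adherent LOVO cells than in adherent HCT116 cells, a log2 ratio of -8.05 (-8.96 to -7.28), and a difference of -4.85 on the log2(FPKM + 1) scale, which understates low levels. In spheroids the log2 ratio was -11.9 from 1 LOVO read (-17.2 to -9.44). CDH3 was 9.35-fold lower in adherent LOVO cells (log2 ratio -3.23, -3.37 to -3.08) and 11.8-fold lower in LOVO spheroids (-3.56, -3.71 to -3.42). CDH2 was higher in LOVO by a log2 ratio of 7.46 (6.10 to 9.34) in adherent cells and 8.83 (6.34 to 14.1) in spheroids. CDH17 had 0 reads in adherent LOVO cells against 15 in HCT116, a log2 ratio of at most -1.66 by its counting interval, and was 5.99-fold lower in LOVO spheroids, from 5 reads against 25 (log2 ratio -2.58, -4.32 to -1.17). Counting intervals between lines left out 0 for 83.1% of all genes in adherent cells and 82.3% in spheroids, so an interval apart from 0 is no mark of these cadherins.

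Catenins differed between the lines by at most 1.95-fold, less than CDH1, CDH2 and CDH3 did. In adherent cells CTNNA1 was 1.72-fold and JUP 1.68-fold higher in LOVO, CTNNB1 was 1.35-fold lower, and CTNND1 was 1.08-fold lower. In spheroids CTNNB1 was 1.95-fold and CTNND1 1.53-fold lower in LOVO, JUP was 1.12-fold higher, and CTNNA1 differed by 0.02 (log2 ratio interval -0.02 to 0.07), with values between -0.01 and 0.26 over the settings tried. The direction of CTNNA1 in spheroids was therefore not settled. The median over all genes was 0.07 in adherent cells and 0.04 in spheroids, and TPM moved it to 0.13 and 0.26. CTNNB1, CTNND1 and JUP kept their directions between lines under each scaling tried.

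**Figure D4:**
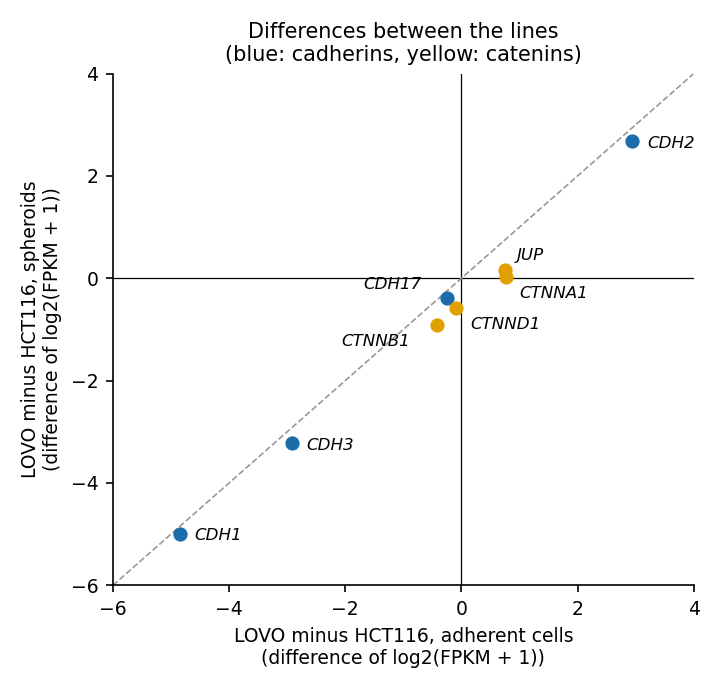
Difference between LOVO and HCT116 in log2(FPKM + 1) for adherent cells (horizontal axis) and spheroids (vertical axis), 1 point per gene, blue for cadherins and yellow for catenins, with the dashed line where both are equal. CDH1 at -4.85 and -4.99, CDH3 at -2.92 and -3.23, and CDH2 at 2.94 and 2.67 stand apart from the 4 catenins near the centre, and CDH11, without reads, is left out.

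Treating the growth forms of a line as its 2 libraries, limma with growth form as covariate gave an adjusted p of 0.00369 for CDH1 (-4.92, SE 0.25), 0.00596 for CDH3 (-3.07, SE 0.25) and 0.00757 for CDH2 (2.81, SE 0.28). The values for CDH1 and CDH2 carry no weight as evidence, since both passed the filter only through the line in which each is high. Of all genes 24.7% passed the same threshold. Without the filter on low levels limma called 0 of the 58735 genes, with a smallest adjusted p of 0.284 among the members. The 4 catenins had limma adjusted p values of 0.130 for CTNNB1, 0.304 for JUP, 0.371 for CTNND1 and 0.375 for CTNNA1. This fit takes the spread between growth forms as its error and describes these lines only.

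CDH3 and CDH1 are neighbours on chromosome 16, with 14608 bases and no protein-coding gene between them. Beyond CDH1 the next protein-coding genes were TANGO6 and HAS3, the hyaluronan synthase. HAS3 was at 10.7 and 7.25 FPKM in HCT116 and 0.622 and 0.808 in LOVO. TANGO6 went the other way in adherent cells, with 2.34 and 1.58 FPKM in HCT116 and 6.01 and 2.28 in LOVO. Before CDH3, ZFP90 was at 3.44 and 5.91 FPKM in HCT116 and 3.85 and 4.53 in LOVO, and SMPD3 at 0.575 and 0.689 against 1.42 and 1.03. CHTF8, which overlaps HAS3 at its end, was at 32.9 and 27.8 FPKM in HCT116 and 49.4 and 23.9 in LOVO. Of these 7 genes CDH3, CDH1 and HAS3 were lower in LOVO in both growth forms, and the other 4 were not.

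CDH1 had the widest range among the members, and the genes whose log2(FPKM + 1) values were nearest to its own across the 4 libraries, by Euclidean distance after centring, were CBLC at 0.13, AC092306.1 and IGFBP2 at 0.34, FABP5P7 at 0.36 and RAB25 at 0.37. CBLC, a ubiquitin ligase of epithelia, was at 29.3 and 31.2 FPKM in HCT116 and had no reads in LOVO. RAB25, an epithelial GTPase, was at 41.1 and 31.5 in HCT116 and 0.0328 and 0.0293 in LOVO. A likeness over 4 libraries rests on the line difference alone.

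Genes of the same junctions are given next by role, with counts of those whose counting interval lay above or below 0 in spheroids minus adherent cells. Background shares were 27.2% above and 35.0% below in HCT116, and 32.1% above and 42.0% below in LOVO. Of 14 other classical cadherins 2 were measured. CDH15, muscle cadherin, was at 3.27 and 1.90 FPKM in HCT116 and 0.0241 and 0.397 in LOVO. CDH24, a type II classical cadherin, was at 7.74 and 6.69 in HCT116 and 7.02 and 10.9 in LOVO, so both were lower in HCT116 spheroids and higher in LOVO spheroids. The list median was -0.37 in HCT116 and 0.51 in LOVO, and in LOVO spheroids CDH24 stood above CDH2.

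Of 20 atypical and 7-domain cadherins 7 were measured, with 6 above and 0 below in HCT116 (median 0.40) and 1 above and 4 below in LOVO (median -0.18). FAT1, a giant atypical cadherin, was at 139 and 244 FPKM in HCT116, above every member there, and at 7.43 and 5.63 in LOVO. FAT4 differed by 1.13 in HCT116 and -0.35 in LOVO. The calsyntenin CLSTN3 was higher by 0.40 in HCT116 and by 1.23 in LOVO, and CLSTN1 stood at 42.6, 43.6, 54.8 and 41.6 FPKM over the 4 libraries in the order used above. FAT1 resembled CDH1 and CDH3 in being lower in LOVO.

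Desmosomes share JUP with the adherens junction. Of 11 desmosomal cadherins and plaque proteins 6 were measured, with 3 above and 2 below in HCT116 (median 0.06) and 0 above and 4 below in LOVO (median -0.21). The desmosomal cadherins DSC2, at 3.06 and 5.59 FPKM in HCT116 and 0.161 and 0.103 in LOVO, and DSC3, at 1.72 and 4.12 against 0 and 0.00704, were higher in HCT116 spheroids. The plakophilin PKP3 was lower in spheroids of both lines, by 0.41 in HCT116 and 1.09 in LOVO, and PKP2 differed by -0.30 and -0.57. Desmoplakin (DSP), which ties JUP to keratin, was at 41.0 and 43.5 FPKM in HCT116 and 47.4 and 41.8 in LOVO. PKP2 and PKP3 thus shared the direction of JUP in both lines.

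Of 8 other catenins and catenin-like proteins 5 were measured, with 2 above and 2 below in HCT116 (median -0.08) and 1 above and 3 below in LOVO (median -0.15). CTNNAL1, an alpha-catenin-like protein, was lower by 1.48 in HCT116 spheroids, from 51.6 to 17.9 FPKM, and by 0.33 in LOVO. ARVCF, a relative of CTNND1, was higher by 0.33 and 0.34. PKP4 differed by 0.15 in HCT116 and -0.89 in LOVO, and CTNNBL1, which is no junction protein, by -0.08 and -0.15. The relatives of the members did not share the direction of CTNND1 and CTNNA1 as a group.

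All 13 nectins, afadin and actin linkers were measured, with 3 above and 7 below in each line (medians -0.14 in HCT116 and -0.13 in LOVO). AJUBA, a LIM protein that binds alpha-catenin, was lower by 0.69 in HCT116 and by 2.98 in LOVO, where it went from 73.4 to 8.45 FPKM. LIMA1, an actin partner of alpha-catenin, was lower by 0.65 and 1.10. The crosslinker ACTN4, at 154, 98.8, 110 and 71.1 FPKM, was lower by 0.64 and 0.62. SHROOM3 was higher by 0.42 and 0.12, and NECTIN1, an adhesion receptor, differed by -0.14 in HCT116 and 0.88 in LOVO. AJUBA was the one gene of this list past 2, in LOVO.

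On the WNT side of CTNNB1, all 9 genes of the destruction complex were measured, with 5 above and 3 below in HCT116 (median 0.24) and 2 above and 6 below in LOVO (median -0.34). APC, the scaffold, was higher by 0.24 and 0.51, and the kinase CSNK1A1 lower by 0.58 and 0.57. AXIN1 differed by -0.17 and -0.45. AXIN2, itself a WNT target, was at 3.02 and 6.63 FPKM in HCT116 and at 0 and 0.0190 in LOVO. Of 8 nuclear partners 6 were measured, with 0 above and 1 below in HCT116 (median -0.0049) and 3 above and 1 below in LOVO (median 0.10). TCF7L2, the main TCF factor of intestine, was at 20.5 and 20.3 FPKM in HCT116 and 3.16 and 1.82 in LOVO, TCF7L1 at 5.77 and 6.46 against 0.581 and 0.878, and LEF1 had no reads in any library. The coactivator BCL9L differed by -0.63 in HCT116 and 0.28 in LOVO, BCL9 by 0.09 and 0.17, and PYGO2 by 0.0082 and -0.06. AXIN2 and TCF7L2 were thus lower in LOVO, where CTNNB1 itself differed less.

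Among 9 genes of cadherin processing and turnover 8 were measured, with 3 above and 5 below in HCT116 (median -0.10) and 4 above and 4 below in LOVO (median -0.03). The membrane protease MMP14 was higher by 0.51 and 1.39 and FURIN, which cuts cadherin precursors, by 0.28 and 0.61. ADAM15 was lower by 0.70 and 0.28, and CBLL1 (Hakai), a ubiquitin ligase of E-cadherin, by 0.26 and 0.30. Of 7 repressors of CDH1 transcription 5 were measured, with 0 above and 4 below in HCT116 (median -0.31) and 2 above and 1 below in LOVO (median -0.04). SNAI1 was at 21.2 and 11.5 FPKM in HCT116 and 0.893 and 5.28 in LOVO, so it was higher in HCT116. SNAI2 was at 2.68 and 1.19 against 9.35 and 2.62, and ZEB1 at 0.601 and 0.289 against 2.89 and 3.8, both higher in LOVO. TCF3 was at 30.2 and 27.3 FPKM in HCT116 and 22.0 and 21.3 in LOVO. TWIST1 was at 2.58 and 2.96 against 3.89 and 3.30. ZEB2, below the mean of 1 FPKM, had 0 reads in both HCT116 libraries and 255 and 278 in LOVO, and TCF4 had at most 8 reads in a library. A part of these repressors in the CDH1 levels was not tested.

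**Figure D5:**
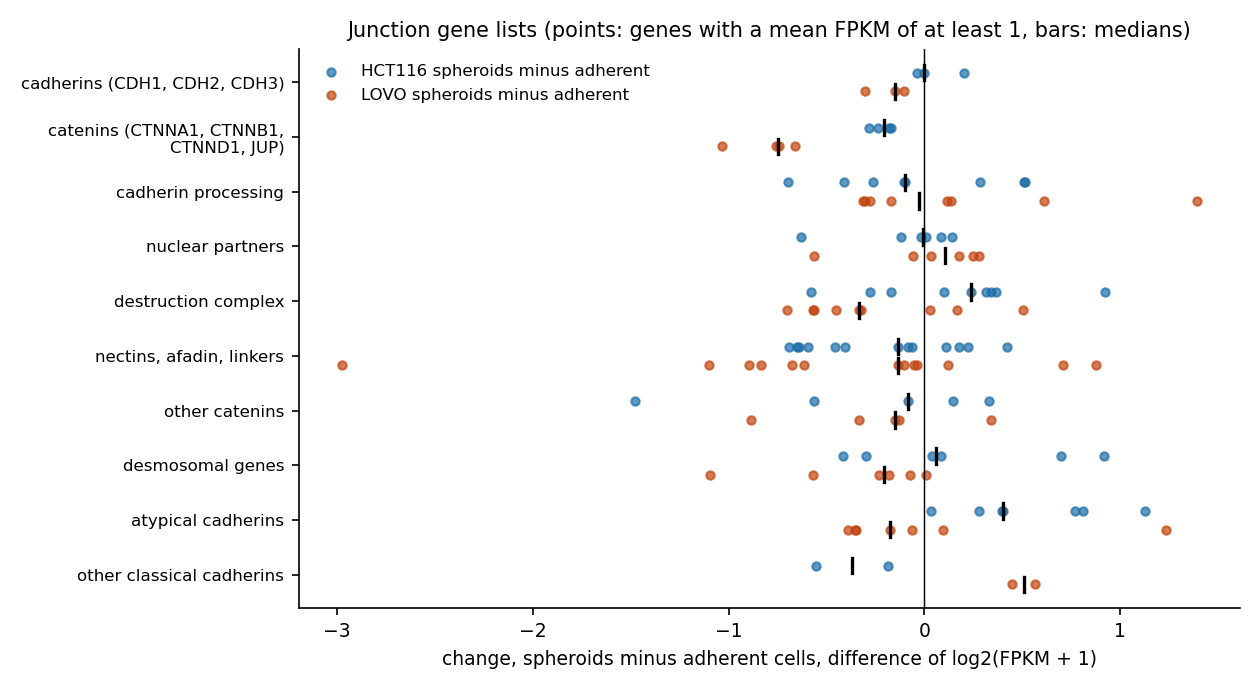
Change between spheroids and adherent cells in log2(FPKM + 1) for the genes of each list with a mean of at least 1 FPKM, with 1 point per gene (blue: HCT116, red: LOVO) and a black bar at each median. The 4 catenins lie together below 0, with medians of -0.21 and -0.75, and AJUBA at -2.98 is the leftmost point.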

How the data were processed

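RNA from 4 cultures (RNeasy extraction, SMARTER mRNA-seq kit) was sequenced by the authors, who deposited 1 table of FPKM values per gene, with gene length and position. The aligner, the counter and the use of strand are not given in the sources used here. The submitters' processing notes name the mouse builds GRCm38 and mm10, whereas all 58735 gene identifiers and the coordinates and lengths of the 9 members match human GENCODE release 29 on GRCh38. The authors' methods used edgeR with a log fold change above 2 and a p-value under 0.05.

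Here, reads were recovered from FPKM, gene length and library size, and differences were taken in log2(FPKM + 1) for genes with a mean of at least 1 FPKM. Counting intervals were 95% exact (Clopper-Pearson) intervals of the ratio of 2 read counts, scaled by library size. They cover counting error only. limma 3.58.1 (R 4.3.3), with an intensity trend and Benjamini-Hochberg adjustment, was fitted over all genes that passed the filter, with the other factor as covariate. Other steps used Python 3.11.15 with scipy 1.17.1. Scripts were tested on simulated data. Groups came from the sample titles. Named genes were all members and, from each of 13 lists, the 2 measured genes with the highest and the 2 with the lowest mean change within lines and the 1 with the highest mean FPKM, with the 5 genes nearest to CDH1 and the genes beside CDH1 and CDH3. DSG2, VIM, LEF1, LUM and the like were named beside a result after their values were seen. The members and lists were chosen with earlier results of these data known. One shared stretch of sequence is not reported here. Lists have no test and are described by counts and medians.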

Additional observations from a re-analysis of the deposited data

Results flagged for a closer look

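CDH3 differed in direction between the lines: spheroids minus adherent cells gave 0.20 in HCT116 and -0.10 in LOVO on the log2(FPKM + 1) scale. With 1 library per condition the difference between the lines was not tested, and the LOVO counting interval (-0.33 to 0.07) includes 0.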

How the results depend on the processing

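Values of single members were computed again under other settings, which gave 204 values over members, contrasts and settings. A change of filter leaves a member's value as it is, so such values were bound to count as staying. Of all 204, 166 stayed within a span as wide as the counting interval and centred on the main value. The other 38 did not, and 0 changed the direction of a called value. That span is wide for genes with few reads. The move of CDH1 in LOVO spheroids against adherent cells from -0.15 to -2.82 with a pseudocount of 0.01 therefore stayed within it. The number of members past the threshold in LOVO spheroids against adherent cells went from 0 to 1 with a pseudocount of 0.01 (CDH1, from 13 reads to 1) and to 1 at a threshold of 1 (CTNNA1). CTNNA1 in LOVO was no longer past 1 in TPM (-0.84), under TMM-style scaling (-0.90) or after centring (-0.98). In limma the members called between lines went from 3 to 0 with no filter, where 58735 genes were adjusted over. With a filter or pseudocount changed, scaling changed or the covariate dropped, limma adjusted p values ran from 0.00271 to 0.0187 for CDH1, 0.00539 to 0.0201 for CDH2 and 0.00475 to 0.0165 for CDH3. CDH2 is below the filter of 5 FPKM. A smaller pseudocount moved CDH1 between adherent lines from -4.85 to as low as -7.93. The number of all genes past 2 in adherent LOVO against adherent HCT116 cells went from 1566 to 3064 with a pseudocount of 0.01, and in HCT116 spheroids from 102 to 458. No pairing by replicate number was possible because each condition had 1 library and the labels carry no replicate numbers, and no library was left out in turn. The limma fit for growth form was blocked by line, and without that covariate it also called 0 members. CDH1 in LOVO, CDH2 in HCT116, CDH17 and CDH11 are limited by depth.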

Other observations

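Of 113 genes of the cadherin superfamily, 48 and 51 held more than 3 reads in adherent and spheroid HCT116 cells and 51 and 61 in LOVO, and 19, 21, 18 and 17 reached 1 FPKM. FAT1, at 139 and 244 FPKM, led the family in HCT116, followed by CLSTN1, the desmosomal DSG2, CDH3 and CDH1. In LOVO the family was led by CLSTN1 at 54.8 and 41.6 FPKM, while none of the classical members CDH1, CDH2 and CDH3 was among its 5 highest genes. The protocadherin PCDH1, chosen after its values were seen, in LOVO was at 7.32 FPKM when adherent and 33.6 as spheroids. DSG2 alone was 0.594 and 0.564 of the summed FPKM of the 5 cadherins above in HCT116 and 2.61 and 2.67 times that sum in LOVO.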
